A study of Homo sapiens with 6 samples.

Results

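CDK1 is the kinase that drives cells from G2 into mitosis, and 10 genes of the switch that controls it are described here: the kinase gene CDK1, the cyclin genes CCNB1, CCNB2 and CCNA2, the activating phosphatase genes CDC25A, CDC25B and CDC25C, the inhibitory kinase genes WEE1 and PKMYT1, and the transcription factor gene FOXM1. They were chosen by name, and all 10 were found among the 56638 gene symbols counted. All 10 also passed the filter on low counts, which kept 14685 genes for testing. RNA was sequenced from cells labelled HT29, an established human colorectal cancer line. There were 3 libraries after transfection of an siRNA against RNF6, a RING-type ubiquitin ligase, and 3 after a nonspecific siRNA. Every library came from the same wild-type line at passages given as a range that both groups share, and the siRNA was the only stated difference. Effects of the loss of RNF6 and other effects of the siRNA cannot be told apart in this design. Since no label describes replicates as separate cultures, the spread behind the p-values may be only technical.

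CDK1 acts only when bound to a cyclin. WEE1 and MYT1, the product of PKMYT1, hold the complex inactive by phosphorylating CDK1 near its ATP-binding site, and CDC25 phosphatases remove those marks. Active CDK1 in turn stimulates CDC25 and restrains its inhibitors, so that entry into mitosis is abrupt. Most genes of the switch are transcribed late in the cell cycle, through the MuvB complex at a promoter element called the cell cycle genes homology region, through NF-Y at CCAAT boxes and through FOXM1. These points are background. Protein levels, phosphorylation and cell-cycle phase were not measured here, and in bulk RNA a change in the share of cells in G2 and a change per cell cannot be told apart.

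Promoter sequences are shown first, since the elements named above are read there, for genes that rose (CDK1, CCNB1, CCNB2 and CDC25A) and for genes that were not called (CCNA2 and CDC25C). The homology region is usually written TTTGAA or TTTAAA. RefSeq promoter windows of GRCh38.p14, from 250 bases before to 50 after an annotated start, were found for 7 of the 10 genes, in 14 windows. They were searched on both strands for TTTGAA, for TTTAAA, for CCAAT, and for TTTGGCGC or TTTCGCGC, which are E2F-type sites. Of 35116 such windows of all genes, 15.2% hold TTTGAA, 12.2% TTTAAA, 34.6% CCAAT and 1.15% an E2F-type site. The sequences below run from 130 bases before the start to the base before it, 5′ to 3′ on the gene's strand, with matches to these 4 searches in capitals (ATTGG is CCAAT on the other strand).
CCNB2, chr15:59105016-59105145, plus strand: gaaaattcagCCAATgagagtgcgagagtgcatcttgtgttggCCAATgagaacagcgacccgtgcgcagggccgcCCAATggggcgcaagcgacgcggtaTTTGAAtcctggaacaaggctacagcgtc
CCNB1, chr5:69167020-69167149, plus strand: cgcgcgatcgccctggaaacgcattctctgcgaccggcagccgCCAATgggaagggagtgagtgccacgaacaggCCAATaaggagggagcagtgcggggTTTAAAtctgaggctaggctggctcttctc
CDC25A, chr3:48188418-48188547, minus strand: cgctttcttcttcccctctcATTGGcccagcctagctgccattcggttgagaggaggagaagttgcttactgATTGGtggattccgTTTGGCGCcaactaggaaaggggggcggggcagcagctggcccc
CCNA2, chr4:121823884-121824013, minus strand: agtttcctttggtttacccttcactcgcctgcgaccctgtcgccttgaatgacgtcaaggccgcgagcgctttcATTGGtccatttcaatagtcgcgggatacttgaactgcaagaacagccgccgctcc

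The B-type cyclin promoters had a similar layout. In the CCNB2 stretch, CCAAT began 120, 87 and 54 bases before the start, at a spacing of 33 bases, and TTTGAA began 25 bases after the last of them. In the CCNB1 stretch, CCAAT began 87 and 55 bases before the start, and TTTAAA again began 25 bases after the nearer of them. CDC25A had an E2F-type site 44 bases before its start and neither TTTGAA nor TTTAAA. CDK1 also held an E2F-type site, 128 bases before its second start. The same site lies 20 bases after the first annotated start of CDK1. The CCNA2 window held 1 CCAAT and none of the other searched words. Other spellings of the homology region were not searched, so its absence from CCNA2 or CDC25A is not shown.

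CDK1 and CDC25C have several annotated starts, so only 30 bases around a match are shown for them, with the match in capitals.
CDK1, second start, chr10:60778453-60778482, plus strand: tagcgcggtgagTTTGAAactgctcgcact
CDC25C, inner start, chr5:138331817-138331846, minus strand: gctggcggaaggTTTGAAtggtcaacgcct
This CDK1 match, 1 of 3 in its window, began 13 bases before the second annotated start, and CCAAT began 46 bases before that start. The CDC25C match began 30 bases before an inner start, with CCAAT 55 bases further upstream. In the 4 windows of CDC25B, TTTGAA was not found, TTTAAA was present in 1, 33 bases after the start, and CCAAT in 2. A link between matches and calls was not tested. CDC25C held both TTTGAA and CCAAT in the windows of its inner starts, neither in its other windows, and was not called. CDC25A rose with neither searched form of the homology region. WEE1, PKMYT1 and FOXM1 had no window to search. A match is a description of these letters and does not show that a factor binds there.

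Reads assigned to genes came to between 6808771 and 11071456 per RNF6 siRNA library, and to between 7173957 and 9366532 per control library. The members had between 224 and 3096 reads in a library. RNF6, the targeted gene, was at 16.5, 16.2 and 16.9 CPM (read counts scaled to library size and by TMM factors) in RNF6 siRNA replicates 1, 2 and 3, against 54.3, 45.2 and 57.8 CPM in the control replicates. The first principal component, with 62.1% of the variance, separated the groups, and control replicate 1 lay at an end of the second. Of all genes tested, 32.7% were called at an adjusted p below 0.05 (edgeR's quasi-likelihood test, Benjamini-Hochberg over all genes), 16.6% of them higher and 16.1% lower as shares of the genes tested. Among 10 colorectal epithelial markers, the keratin genes KRT8, KRT18, KRT19 and KRT20 fell and EPCAM, CDH1 and CDX2 were not called. The markers VIL1, LGALS4 and CEACAM5 were at 0.688 CPM or less in every library, and KRT20 at 2.35 CPM or less. These low levels do not bear out the label HT29, while EPCAM averaged 218 CPM and CDX2 15.9 CPM in control. The identity of the line was not tested. The summed level of all 10 epithelial markers was 2445 to 2829 CPM after RNF6 siRNA and 4351 to 5652 CPM in control. Most of it was KRT8 and KRT19, so this sum describes keratins more than epithelial markers in general. For 14 markers of fibroblasts, leukocytes and endothelium the sum was 72.0 to 87.3 CPM after RNF6 siRNA and 53.1 to 70.3 CPM in control, most of it COL1A1, with PECAM1 and CD68 at 0. The part of these shifts in the results below was not tested.

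After RNF6 siRNA, 5 of the 10 genes rose (CDK1, CCNB1, CCNB2, CDC25A and FOXM1), 1 fell (WEE1) and 4 were not called (CCNA2, CDC25B, CDC25C and PKMYT1). The shares of all tested genes called, 16.6% higher and 16.1% lower, are the background for these counts. The median log2 fold change of the 10 genes was 0.29, against 0.01 for all genes tested. CCNB2 stood out in size with a 1.76-fold rise, while the other called members changed between 1.23-fold and 1.43-fold. For 6 of the 10 genes every RNF6 siRNA library lay above every control library, and for 2 below, against 22.4% and 21.8% of all tested genes (44.2% in either direction). The members were chosen with earlier results of these data known, so these counts are a description. Leaving out control replicate 3 or RNF6 siRNA replicate 3 left 2 members that rose, and leaving out control replicate 2 or RNF6 siRNA replicate 1 left 3. The call of WEE1 ended in 5 of 6 such fits.

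**Figure D1:**
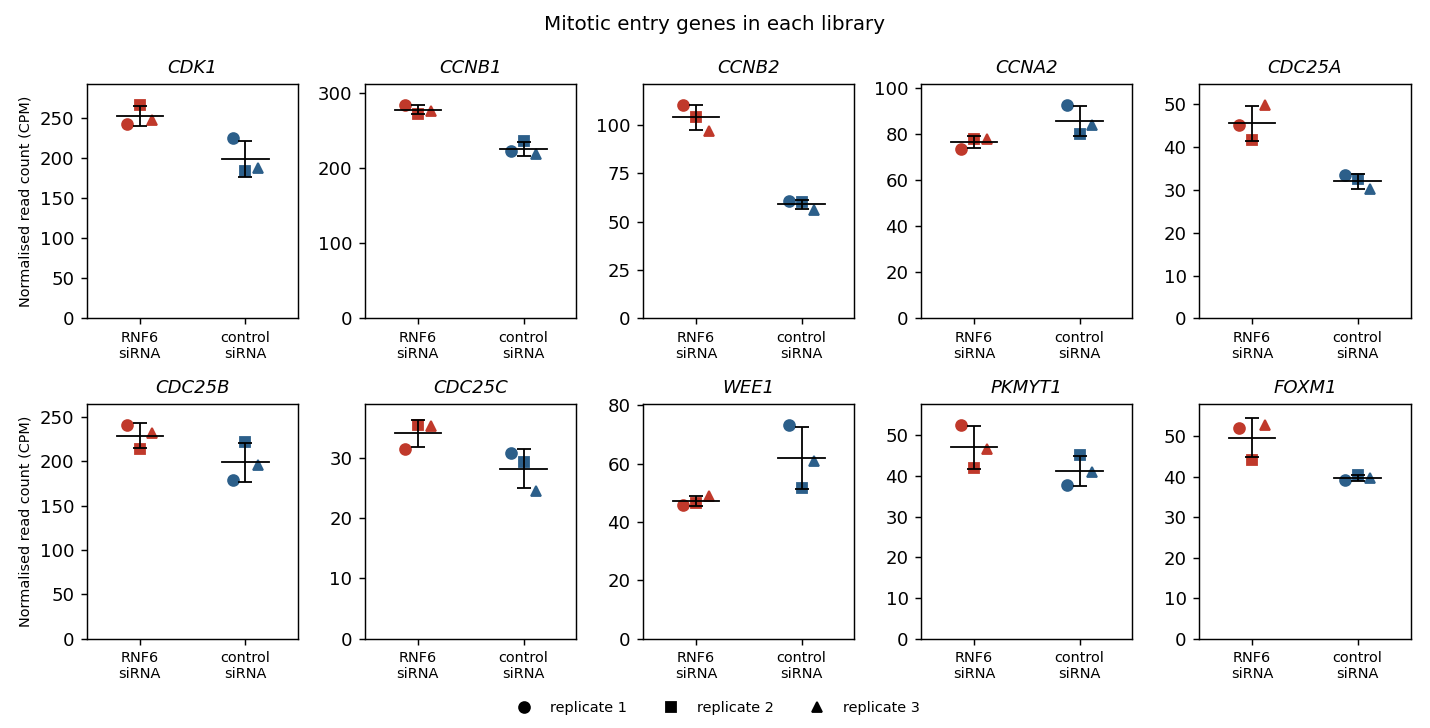
Normalised read count (CPM, vertical axes from 0) of each of the 10 mitotic entry genes in RNF6 siRNA libraries (red, left) and control siRNA libraries (blue, right), with a marker shape per replicate and black bars for mean ± SD (n = 3 each). CCNB2 shows the widest gap, with 97.1 to 110.3 CPM after RNF6 siRNA and 56.2 to 60.5 CPM in control, and CDC25B and PKMYT1 overlap between the groups.

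CDK1, the kinase itself, had 243, 266 and 248 CPM in RNF6 siRNA replicates 1, 2 and 3, against 225, 184 and 188 CPM in control replicates 1, 2 and 3. All RNF6 siRNA libraries lay above all control libraries, and control replicate 1 came closest to them. The means were 252 ± 12.3 CPM after RNF6 siRNA and 199 ± 22.3 CPM in control (SD, n = 3 each), a 1.27-fold rise (log2 fold change 0.34, SE 0.102, edgeR adjusted p = 0.0214). Leaving out 1 library ended the call in 4 of 6 cases: control replicate 2 or 3 (edgeR adjusted p = 0.0594 or 0.135) and RNF6 siRNA replicate 2 or 3 (0.0805 or 0.0692).

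The cyclins did not move alike. CCNB2 encodes cyclin B2, the B-type cyclin found at the Golgi apparatus. It had 110.3, 104.2 and 97.1 CPM in the RNF6 siRNA replicates, against 60.5, 60.1 and 56.2 CPM in the control replicates. The lowest RNF6 siRNA library was far above the highest control library. Means of 104 ± 6.61 CPM after RNF6 siRNA and 58.9 ± 2.38 CPM in control gave a log2 fold change of 0.82 (SE 0.102, edgeR adjusted p = 7.75e-05). This fold was larger in size than that of 89.7% of tested genes, and the call held in each of 12 alternatives.

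CCNB1 encodes cyclin B1, the main partner of CDK1 at mitotic entry. Its level was 285, 273 and 277 CPM in the RNF6 siRNA replicates and 223, 236 and 219 CPM in the control replicates, without overlap. The rise was 1.23-fold (log2 fold change 0.30, SE 0.0880, edgeR adjusted p = 0.0202). Leaving out control replicate 3 (edgeR adjusted p = 0.132) or RNF6 siRNA replicate 1 or 3 (0.0676 or 0.0720) ended the call, as did testing every gene with a read (0.0699).

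CCNA2 encodes cyclin A2, which partners CDK2 in S phase and CDK1 in G2. It had 73.5, 78.1 and 77.8 CPM after RNF6 siRNA, against 92.7, 80.0 and 84.2 CPM in control. The RNF6 siRNA libraries all lay below the control libraries, narrowly so for control replicate 2, and the difference did not pass the test (log2 fold change −0.16, SE 0.102, edgeR adjusted p = 0.241). Annotated exons of EXOSC9 overlap 9.08% of CCNA2, and the strand setting of the counting is not given, so a small part of its reads could belong to that gene or have been set aside.

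Read ratios within a library do not depend on how libraries are scaled. The ratio of CCNB2 to CCNB1 reads was 0.388, 0.382 and 0.351 in RNF6 siRNA replicates 1, 2 and 3, and 0.272, 0.254 and 0.256 in the control replicates. Every RNF6 siRNA library was above every control library. The ratio of CCNA2 to CCNB1 reads went the other way, with 0.258, 0.286 and 0.281 after RNF6 siRNA and 0.416, 0.339 and 0.384 in control. The balance among the 3 cyclin transcripts thus differed between the groups in every library, without a test of the ratios. CCNA2 lay lower and CCNB1 higher in every RNF6 siRNA library than in any control library, so their ratio had to separate. That ratio is no separate result.

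Per kilobase of annotated exon, CCNB1 had the highest level in both groups, at 108.7 ± 2.37 CPM per kb after RNF6 siRNA and 88.4 ± 3.52 CPM per kb in control. CDK1 came next, with 64.1 ± 3.14 CPM per kb after RNF6 siRNA and 50.6 ± 5.68 CPM per kb in control. CDC25B followed, with 53.1 ± 3.16 CPM per kb after RNF6 siRNA and 46.1 ± 5.08 CPM per kb in control, where its libraries overlapped those of CDK1. The next places were exchanged. After RNF6 siRNA, CCNB2 was at 34.7 to 39.4 and CCNA2 at 26.3 to 27.9 CPM per kb, while in control CCNB2 was at 20.1 to 21.6 and CCNA2 at 28.6 to 33.1 CPM per kb. The remaining 5 genes were lower. CDC25A, CDC25C, FOXM1 and PKMYT1 lay between 9.35 and 11.1 CPM per kb on average after RNF6 siRNA and between 7.77 and 8.46 CPM per kb in control, with overlapping libraries. WEE1 was lowest by this scale, at 5.10 ± 0.180 CPM per kb after RNF6 siRNA and 6.71 ± 1.16 CPM per kb in control, where its highest library overlapped those of its neighbours.

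**Figure D2:**
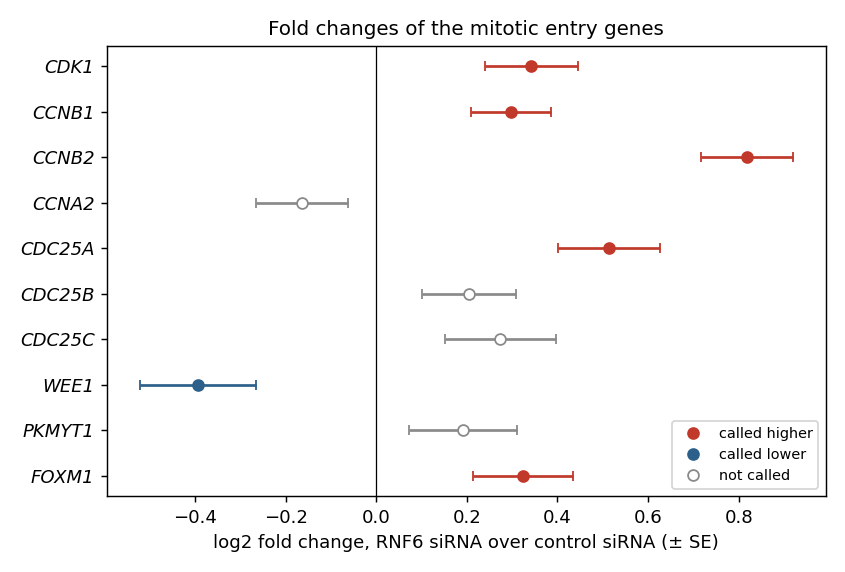
Log2 fold change of each mitotic entry gene, RNF6 siRNA over control siRNA (horizontal axis), with bars for its standard error, filled where the edgeR adjusted p was below 0.05. CCNB2 lies furthest right at 0.82 and WEE1 furthest left at −0.39.

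The 3 CDC25 phosphatases remove the inhibitory phosphates from CDK1 and CDK2. CDC25A, which also acts at the start of S phase, had 45.1, 41.6 and 49.8 CPM in the RNF6 siRNA replicates, against 33.4, 32.5 and 30.1 CPM in the control replicates. The groups were apart, and the means were 45.5 ± 4.09 CPM after RNF6 siRNA and 32.0 ± 1.72 CPM in control. The rise was 1.43-fold (log2 fold change 0.51, SE 0.113, edgeR adjusted p = 0.00411), and the call held in each of 12 alternatives.

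CDC25B, which is thought to start CDK1 activation at the centrosome, had 241, 214 and 232 CPM in the RNF6 siRNA replicates and 179, 222 and 196 CPM in the control replicates. Control replicate 2 lay above RNF6 siRNA replicate 2, and the gene was not called (log2 fold change 0.20, SE 0.103, edgeR adjusted p = 0.148). CDC25C, the phosphatase in the feedback loop with CDK1, had 31.5, 35.4 and 35.3 CPM after RNF6 siRNA and 30.8, 29.3 and 24.5 CPM in control. Its groups did not overlap, but RNF6 siRNA replicate 1 and control replicate 1 were nearly level, and the gene was not called (log2 fold change 0.27, SE 0.123, edgeR adjusted p = 0.104). Without control replicate 1 it passed (edgeR adjusted p = 0.0471). Exons of FAM53C overlap 8.78% of CDC25C. All 3 phosphatase genes had a higher mean after RNF6 siRNA, and the test called CDC25A alone.

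WEE1, the nuclear kinase that inhibits CDK1, had 45.8, 46.5 and 49.0 CPM in RNF6 siRNA replicates 1, 2 and 3. The control replicates had 73.2, 51.8 and 61.0 CPM and spread far more widely, with control replicate 2 close to the RNF6 siRNA libraries. The means were 47.1 ± 1.67 CPM after RNF6 siRNA and 62.0 ± 10.7 CPM in control, a 1.31-fold fall (log2 fold change −0.39, SE 0.128, edgeR adjusted p = 0.0313). The call was lost without control replicate 1 (edgeR adjusted p = 0.0701), where the log2 fold change was −0.27. Leaving out control replicate 3 (0.0830) or any of RNF6 siRNA replicates 1, 2 and 3 (0.0630, 0.0855 and 0.0792) also ended it.

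PKMYT1, whose product is a membrane-bound kinase that inhibits CDK1 outside the nucleus, had 52.5, 42.1 and 46.6 CPM in the RNF6 siRNA replicates and 37.8, 45.1 and 41.0 CPM in the control replicates. The groups overlapped and the gene was not called (log2 fold change 0.19, SE 0.119, edgeR adjusted p = 0.241). Exons of KREMEN2 and PAQR4 overlap 31.6% of PKMYT1, so its level is uncertain.

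Reads of the CDC25 genes set against those of WEE1 in the same library gave ratios that were higher after RNF6 siRNA in every case. The ratio of CDC25A to WEE1 reads was 0.986, 0.895 and 1.02 after RNF6 siRNA and 0.457, 0.626 and 0.493 in control. That of CDC25C to WEE1 was 0.689, 0.762 and 0.722 after RNF6 siRNA and 0.421, 0.566 and 0.402 in control. CDC25B to WEE1 averaged 4.87 ± 0.343 after RNF6 siRNA and 3.31 ± 0.928 in control, with control replicate 2 at 4.29 next to the lowest RNF6 siRNA value of 4.61. The ratio between the inhibitory kinases, PKMYT1 to WEE1, averaged 1.00 ± 0.128 after RNF6 siRNA and 0.686 ± 0.177 in control. All these ratios share WEE1, so they are not independent of one another. WEE1 lay lower in every RNF6 siRNA library than in any control library, and CDC25A and CDC25C higher. The ratios of CDC25A and CDC25C to WEE1 therefore had to separate and are no separate result.

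**Figure D3:**
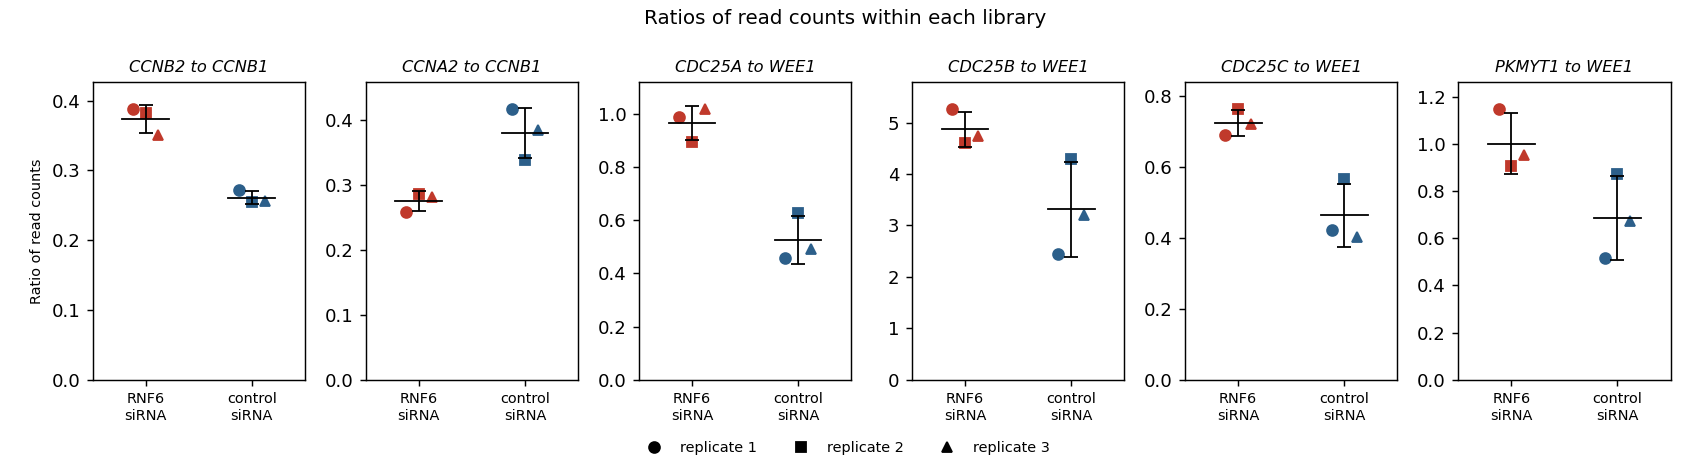
Ratio of read counts between member genes within each library (vertical axes from 0) for RNF6 siRNA (red, left) and control siRNA (blue, right), with mean ± SD (n = 3 each). The CCNA2 to CCNB1 ratio is lower in all 3 RNF6 siRNA libraries and the other 5 ratios are higher, with control replicate 2 nearest to the RNF6 siRNA libraries in the 4 ratios to WEE1.

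FOXM1 encodes the forkhead factor that drives transcription of G2 and mitotic genes, B-type cyclins and CDC25B among them. It had 52.0, 44.1 and 52.7 CPM in the RNF6 siRNA replicates, against 39.1, 40.5 and 39.7 CPM in the control replicates. The groups did not overlap, with RNF6 siRNA replicate 2 nearest to control. The rise was 1.25-fold (log2 fold change 0.32, SE 0.110, edgeR adjusted p = 0.0380), and exons of ITFG2 overlap 15.9% of the gene. The call ended when control replicate 2 or 3 (edgeR adjusted p = 0.0594 or 0.143) or RNF6 siRNA replicate 1 or 3 (0.1125 or 0.168) was left out, when every gene with a read was tested (0.0863) and with DESeq2 (adjusted p = 0.0555).

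**Figure D4:**
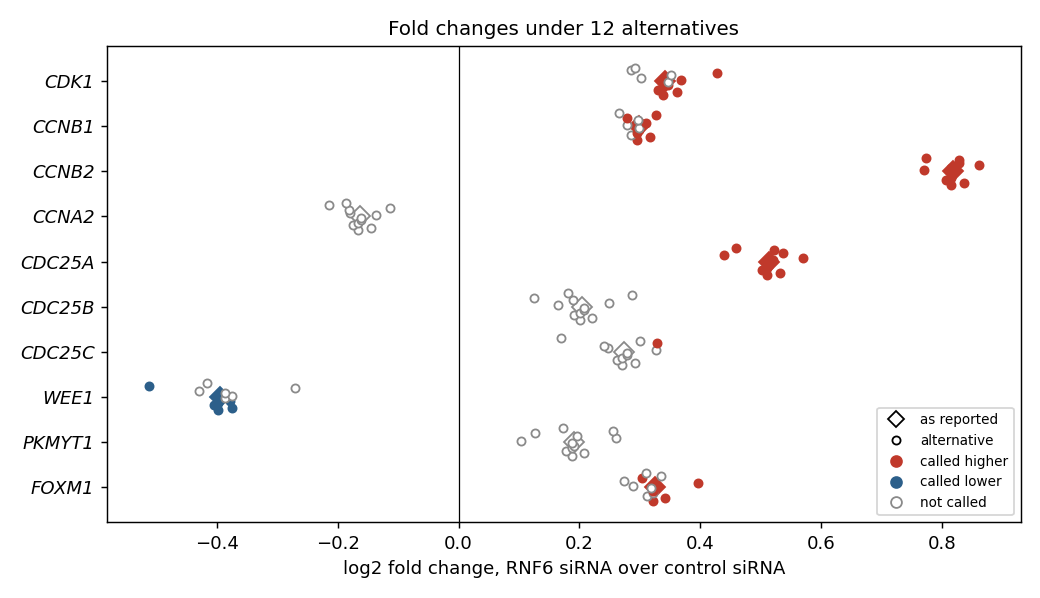
Log2 fold change of each mitotic entry gene, RNF6 siRNA over control siRNA, as reported (diamonds) and under 12 alternative settings (circles), filled where the adjusted p was below 0.05. CCNB2 and CDC25A are filled throughout, CDK1, CCNB1, WEE1 and FOXM1 in part, CDC25C in the fit without control replicate 1, and no gene crosses 0.

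Other genes of the pathway were taken from 7 lists with 120 different genes. For the proteins that bind or activate CDK1, 2 of 7 tested genes fell and 0 rose by edgeR, with a median log2 fold change of −0.18. The share called was 28.6%, against 32.7% of all tested genes. MNAT1, the assembly subunit of the CDK-activating kinase, had 7.82, 8.56 and 9.33 CPM after RNF6 siRNA, against 32.7, 31.8 and 33.9 CPM in control. This 3.82-fold fall (edgeR adjusted p = 9.20e-07) was larger than the change of any member of the switch. It was also larger than the 3.17-fold fall of RNF6, the targeted gene (edgeR adjusted p = 2.12e-06). The other subunits were not called: CDK7 had 56.4 CPM after RNF6 siRNA and 68.2 CPM in control on average, and CCNH had 60.8 CPM after RNF6 siRNA and 68.7 CPM in control, both chosen after their values were seen. CCNB3, a B-type cyclin gene of low level, fell 1.64-fold (edgeR adjusted p = 0.0160), a call that ended when control replicate 3 (0.0594) or RNF6 siRNA replicate 2 or 3 (0.0540 or 0.0605) was left out.

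Of 5 genes of the Polo and Aurora kinases that trigger CDK1 activation, 1 rose and 0 fell by edgeR, and 2 rose when control replicate 1 or 2 or RNF6 siRNA replicate 1 or 2 was left out. The share that rose, 20%, was near the 16.6% of all tested genes. TPX2, the activator of Aurora A, rose 1.41-fold to 353 ± 2.40 CPM after RNF6 siRNA, against 251 ± 15.3 CPM in control (edgeR adjusted p = 0.00128). PLK1, chosen after its values were seen, averaged 124 CPM after RNF6 siRNA and 105 CPM in control and was not called (edgeR adjusted p = 0.119).

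The Greatwall pathway restrains PP2A-B55, the phosphatase that opposes CDK1, through the small inhibitors ENSA and ARPP19. Of 10 tested genes, 3 rose and 2 fell, a share of 50% called beside 32.7% of all tested genes. ENSA had 107.3, 100.7 and 99.4 CPM after RNF6 siRNA, against 45.0, 42.0 and 38.2 CPM in control, a 2.46-fold rise without overlap (edgeR adjusted p = 3.61e-06). ARPP19 rose 1.39-fold (edgeR adjusted p = 0.00745), and its call was lost without control replicate 3 (0.0533). The B55 alpha subunit gene PPP2R2A rose 1.37-fold and the scaffold gene PPP2R1B fell 1.68-fold. The other gene that fell was the catalytic subunit gene PPP2CA, chosen after its values were seen, at 1.23-fold. The PPP2CA call ended when control replicate 2 or 3 (edgeR adjusted p = 0.0559 or 0.0670) or RNF6 siRNA replicate 1 or 3 (0.0808 or 0.0914) was left out. MASTL, the Greatwall kinase gene, was not called, with 30.9 CPM after RNF6 siRNA and 33.7 CPM in control on average.

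Genes of the G2 checkpoint, which keeps CDK1 off after DNA damage, were called in both directions: of 24 tested, 5 fell and 3 rose. That share, 33.3%, was at the background of 32.7%. CDKN1A, the p21 inhibitor of cyclin-dependent kinases, fell 2.29-fold to 382 ± 39.2 CPM after RNF6 siRNA, against 876 ± 61.2 CPM in control (edgeR adjusted p = 5.75e-06). GADD45B fell 1.67-fold, GADD45A 1.32-fold and SFN, the 14-3-3 sigma gene, 1.43-fold. GADD45A and SFN are known to hold back CDK1 with cyclin B1. The fifth that fell, GADD45G (2.73-fold), was near the floor, at 0.179 to 0.886 CPM after RNF6 siRNA and 1.57 to 1.71 CPM in control. GADD45G and the 3 that rose, the 14-3-3 genes YWHAB, YWHAE and YWHAG, were chosen after their values were seen. Leaving out control replicate 3 ended all 4 of these calls (edgeR adjusted p = 0.0803 to 0.163), so that 0 checkpoint genes rose. Leaving out RNF6 siRNA replicate 1 ended those of YWHAE and YWHAG (0.0503 and 0.0731). With RNF6 siRNA replicate 2 left out, YWHAB and YWHAG were lost (0.0587 and 0.0977), and with RNF6 siRNA replicate 3 left out, GADD45G, YWHAB and YWHAG (0.112, 0.0579 and 0.134). YWHAG was also lost with control replicate 2 left out (0.136), while 6 checkpoint genes rose with control replicate 1 left out. The checkpoint kinase genes CHEK1 and CHEK2 were not called (edgeR adjusted p = 0.111 and 0.205).

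Turnover of the switch runs through the anaphase-promoting complex, which destroys cyclins, and through the beta-TrCP ligases, which mark WEE1 and CDC25A. Of 23 tested genes, 4 fell and 2 rose, so that 26.1% were called, below the background of 32.7%. Both beta-TrCP genes fell, BTRC 1.56-fold to 57.6 ± 1.81 CPM after RNF6 siRNA against 89.9 ± 1.30 CPM in control, and FBXW11 1.57-fold to 77.7 ± 4.75 CPM against 122 ± 9.28 CPM in control (edgeR adjusted p = 3.26e-04 and 4.84e-04). CDC23, a subunit of the anaphase-promoting complex, fell 1.80-fold, and UBE2C, the ubiquitin-conjugating enzyme that works with it, rose 1.75-fold. Chosen after their values were seen, CCNF rose 1.61-fold and the subunit gene CDC16 fell 1.22-fold. The CDC16 call ended when control replicate 2 or 3 (edgeR adjusted p = 0.0611 or 0.102) or RNF6 siRNA replicate 1 or 3 (0.139 or 0.116) was left out. CDC20, the mitotic activator of the complex, had 224 CPM after RNF6 siRNA and 219.8 CPM in control on average and was not called.

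Among 20 tested transcription factor genes of the late cell cycle, 5 rose and 2 fell, and this share of 35% was near the background of 32.7%. The pocket protein gene RBL2 rose 1.63-fold, the repressor gene E2F7 1.85-fold and NFYA, the DNA-binding subunit of NF-Y, 1.41-fold, while E2F2 fell 1.53-fold. Exons of other genes overlap 18.2% of RBL2. The others, chosen after their values were seen, were RBL1 (1.60-fold) and TFDP1 (1.20-fold), which rose, and LIN54 (1.43-fold), which fell. The TFDP1 call ended when any library but RNF6 siRNA replicate 2 was left out (edgeR adjusted p = 0.0549 to 0.179). The LIN54 call ended when control replicate 3 (0.0756) or any of RNF6 siRNA replicates 1, 2 and 3 (0.0834, 0.0503 and 0.0661) was left out, and 4 factor genes fell with control replicate 1 left out. MYBL2, which encodes the B-MYB partner of MuvB, was not called, with 78.3 CPM after RNF6 siRNA and 75.2 CPM in control on average.

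Of 28 late cell-cycle genes known as targets of FOXM1 and MuvB, 17 rose and 0 fell by edgeR, with a median log2 fold change of 0.39, against 16.6% of all tested genes that rose. CENPF, a kinetochore protein gene, rose 2.63-fold, the Aurora B gene AURKB 1.88-fold and the spindle protein gene TACC3 1.85-fold. NUSAP1 rose 1.83-fold, with 62.2% of its exons under another annotated gene. Targets that were not called included TOP2A and MKI67, with log2 fold changes of −0.22 and −0.18, both chosen after their values were seen. The count of targets that rose was lowest, at 12, without control replicate 3, and highest, at 20, without control replicate 1, while 1 target fell without control replicate 2. In the 3 lists with 0 genes called in a direction (CDK1 partners rising, Polo and Aurora genes falling, late targets falling), 0 also had an unadjusted p below 0.05 in that direction, and DESeq2 and limma-voom called 0.

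**Figure D5:**
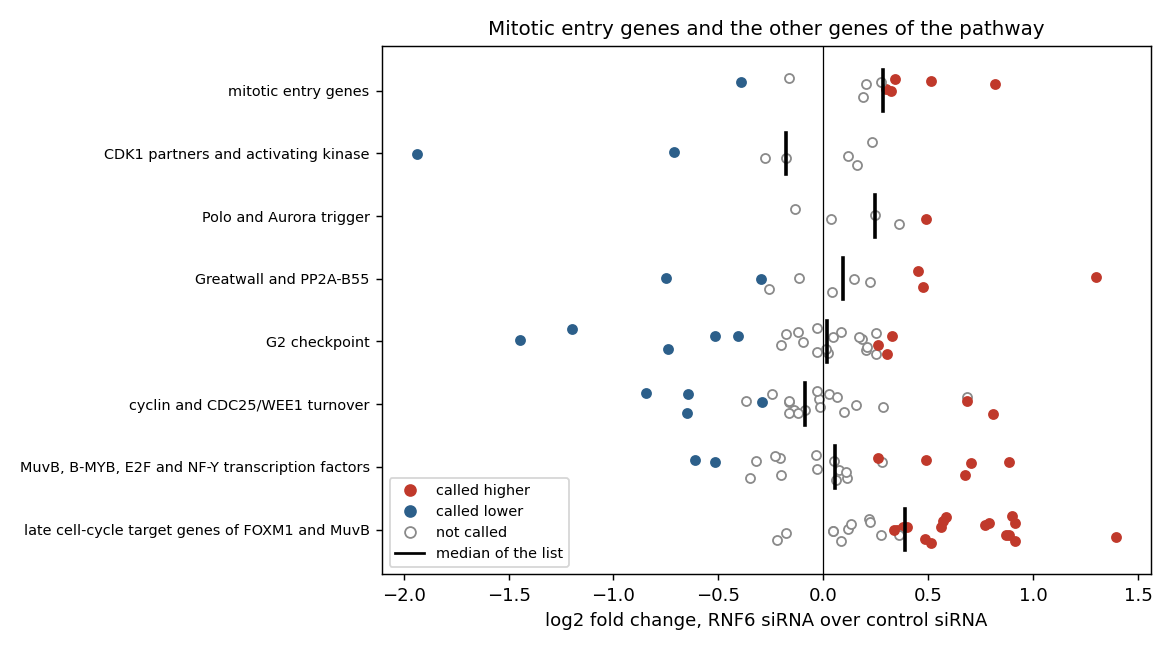
Log2 fold change, RNF6 siRNA over control siRNA (horizontal axis), of each tested gene of the switch and of 7 pathway lists, filled where the edgeR adjusted p was below 0.05, with a black bar at each list's median. The medians are 0.29 for the mitotic entry genes and 0.39 for the late cell-cycle targets, and MNAT1 lies furthest left at −1.94.

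The 5 genes whose profile over the 6 libraries was nearest to that of CDK1, by the root mean square distance between centred log2 CPM values, were RBM5, SEPT2, SFXN1, NDC1 and PAM, at distances of 0.0305 to 0.0368. Among members, CDC25C was nearest at 0.1002, ahead of CCNB1 at 0.124, and ranked 458 of 14684 genes, while WEE1 was furthest at 0.375. Since likeness over these libraries chose them, their highest control value in control replicate 1 and their rises of 1.23-fold to 1.32-fold are no separate result. All 5 calls ended with control replicate 3 left out (edgeR adjusted p = 0.0775 to 0.175), and all but that of PAM with control replicate 2 or RNF6 siRNA replicate 2 or 3 left out.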

How the data were processed

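RNA sequencing measured 3 RNF6 siRNA and 3 control siRNA libraries of cells labelled HT29. The authors deposited whole-number read counts per gene symbol, 1 table per library. Per the submitters' processing notes, TopHat2 2.0.11 and HTSeq were used with build hg19. For the HTSeq version, strand setting and annotation, nothing is stated; without strand, overlapping genes on opposite strands cannot be separated. Rows for unassigned reads (27.3% to 29.4% of a library) were left out.

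Counts were tested in R 4.3.3 with edgeR 4.0.16: filterByExpr (minimum count 10, minimum total 15), TMM factors, a robust quasi-likelihood fit with the group as its only term over all 6 libraries, two-sided, prior count 0.125, Benjamini-Hochberg over 14685 genes, called below 0.05. The standard error is the log2 fold change over the square root of F. Alternatives were other scalings, no filter, DESeq2 1.42.0, limma-voom 3.58.1, a replicate block, and each library left out. Exon lengths and overlaps came from GENCODE 29 on GRCh38, which is not the build of the counts, without coordinates.

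The members and lists were chosen with earlier results of these data known. Genes named by a rule are the members, RNF6, up to 4 called genes per list with the smallest adjusted p, and the 5 profiles nearest to CDK1. Other pathway genes in the text, MASTL, CHEK1, CHEK2, CDC20 and MYBL2 among them, fall outside this rule and were named with their values known.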

Additional observations from a re-analysis of the deposited data

How the results depend on the processing

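All 10 members kept the direction of their change in all 12 alternatives run, and CCNB2, CDC25A and RNF6 kept their call. Deviations of same-numbered libraries from their group means had correlations of −0.45, −0.24 and 0.05, which gave no sign of pairing by number. Whether same-numbered libraries were prepared together cannot be told from these values. With the replicate number as a block, the log2 fold changes of CDK1 (0.35), CCNB1 (0.30), WEE1 (−0.39) and FOXM1 (0.32) no longer passed, and neither did GADD45A (adjusted p = 0.0575) and SFN (0.0501). The block fit called 2 members higher and 0 lower, 1 Greatwall gene lower, 0 checkpoint genes higher and 2 lower, 1 transcription factor gene lower, and 1421 higher and 1321 lower genes in all. With every gene with a read tested, CCNB1 (0.29) and FOXM1 (0.31) no longer passed, leaving 3 members higher and 1 checkpoint gene higher. DESeq2 did not call FOXM1 (0.32), and upper-quartile scaling called 2 Polo and Aurora genes higher. The cause of these changes was not tested.

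Over the 6 fits that leave out 1 library each, the log2 fold change ran from 0.29 to 0.43 for CDK1, 0.27 to 0.33 for CCNB1, 0.12 to 0.29 for CDC25B, 0.17 to 0.33 for CDC25C, 0.10 to 0.26 for PKMYT1, −0.51 to −0.27 for WEE1 and 0.27 to 0.40 for FOXM1. Members called higher ran from 2 to 6 and lower from 0 to 1. Genes called lower ran from 1 to 2 for CDK1 partners, 1 to 3 for Greatwall, 1 to 4 for transcription factors and 0 to 1 for late targets. Genes called higher ran from 1 to 2 for Polo and Aurora and 0 to 6 for the checkpoint. In all, 1514 (control replicate 3 left out) to 2910 genes were higher and 1478 (RNF6 siRNA replicate 3 left out) to 2967 lower. Of 57 other called genes followed through the alternatives, 33 kept their call in each and 0 reversed. No member had fewer than 224 reads in a library. CDK1 and CCNB2, which differ in reads, had the same standard error of 0.102. Among members the standard error was smallest for CCNB1, at 0.0880, which had up to 3096 reads. It was largest for WEE1 (0.128), CDC25C (0.123) and PKMYT1 (0.119), which had at most 572, 394 and 571 reads.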
